A study of Caenorhabditis elegans with 2 samples.

Results

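The 6 vitellogenin genes of Caenorhabditis elegans, vit-1 to vit-6, encode the yolk proteins. They were taken by name from the 19973 protein-coding genes of the nuclear genome. A peak was counted for a gene when it overlapped the gene or the 1000 bp upstream of its annotated start by at least 1 bp. The assay was chromatin immunoprecipitation with sequencing (ChIP-seq) of HLH-26, one of the REF-1 group of basic helix-loop-helix (bHLH) transcription factors. Whole young adults were collected at 66 hours after synchronisation by starving bleached L1 larvae. All animals were of strain RW12174, in which CRISPR had placed an eGFP tag at hlh-26 (allele st12174) together with a floxed unc-119(+) marker in an unc-119(tm4063) background, and precipitation used an antibody to GFP. The 2 biological replicates form 1 group, and no other genotype, stage or treatment is among the samples, so no test between conditions exists here. Whole animals were used, so a peak cannot be assigned to the intestine, and neither RNA nor the level of the fusion protein was measured.

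Vitellogenins are large lipid-carrying proteins made in the intestine of the adult hermaphrodite. They are secreted into the body cavity and taken up by growing oocytes through the receptor RME-2, where they feed the embryo. The intestinal GATA factor ELT-2 and other regulators act through short elements in the vit promoters, and the genes are among the most strongly transcribed of the young adult. In C. elegans, vit-1 to vit-5 encode the larger yolk polypeptides, and vit-6 encodes a precursor that is cut into the smaller ones.

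Within their windows the vit genes held 27 ranked peaks in the list that compares the replicates with each other, called the main list below, and none of these passed the authors' threshold. They fell on 4 of the 6 genes, with 9 on vit-1, 9 on vit-2, 2 on vit-5 and 7 on vit-6. No peak overlapped vit-3 or vit-4 in any of the 4 ranked lists. The strongest lay just inside the start of vit-6, at rank 213 of 35284 nuclear peaks by signal. Of all protein-coding genes, 61.0% had a ranked peak by the same rule, so 4 of 6 is close to the background. A thresholded peak was present on 0 of the 6 genes and on 0.416% of all protein-coding genes.

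Coordinates are 1-based on ce11, the same assembly as WBcel235, and sequence is from RefSeq. The genes are vit-1 (WBGene00006925, chrX:7727889-7733168, plus strand), vit-2 (WBGene00006926, chrX:5101042-5106169, plus strand), vit-3 (WBGene00006927, chrX:3567355-3572549, minus strand), vit-4 (WBGene00006928, chrX:3558769-3563965, minus strand), vit-5 (WBGene00006929, chrX:3403471-3408603, plus strand) and vit-6 (WBGene00006930, chrIV:8261157-8266459, plus strand). They are 5128 to 5303 bp long. Their windows, upstream part included, are 6128 to 6303 bp.

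The bases around the summits of the 3 strongest vit peaks are printed 5′ to 3′ as a description of the sequence there. Each run covers 50 bp either side of the summit of the main list. Capitals mark any of 6 bHLH hexamers on either strand, namely the E-box CACGTG, the related hexamer CATGTG, the hexamer CACGCG, the hexamer CATGCG, the E-box CAGCTG and the N-box CACNAG.
vit-6 start peak (chrIV:8261297-8261397, plus strand): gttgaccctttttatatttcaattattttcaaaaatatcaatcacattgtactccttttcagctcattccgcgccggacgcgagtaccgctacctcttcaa
vit-6 middle peak (chrIV:8263504-8263604, plus strand): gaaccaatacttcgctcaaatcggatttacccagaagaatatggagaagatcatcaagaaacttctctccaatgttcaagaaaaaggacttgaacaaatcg
vit-2 start peak (chrX:5101132-5101232, plus strand): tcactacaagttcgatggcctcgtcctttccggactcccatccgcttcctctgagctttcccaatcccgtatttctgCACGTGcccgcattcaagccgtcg
The vit-2 run held a CACGTG, the palindromic E-box, and neither vit-6 run held any of the 6 hexamers.

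The 250 bases before the start are shown for vit-2 and vit-6, whose strongest peaks reach into them, and for vit-4, which had no peak. Capitals mark TGTCAAT and CTGATAA on either strand, elements described earlier in nematode vitellogenin promoters. The second contains the GATA-type core TGATAA, so these motifs overlap.
vit-2 promoter (chrX:5100792-5101041, plus strand): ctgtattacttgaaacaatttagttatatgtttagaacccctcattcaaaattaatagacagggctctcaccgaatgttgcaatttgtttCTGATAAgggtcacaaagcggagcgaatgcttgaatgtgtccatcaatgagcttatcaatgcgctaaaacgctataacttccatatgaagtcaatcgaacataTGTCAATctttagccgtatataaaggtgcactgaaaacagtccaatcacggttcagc
vit-6 promoter (chrIV:8260907-8261156, plus strand): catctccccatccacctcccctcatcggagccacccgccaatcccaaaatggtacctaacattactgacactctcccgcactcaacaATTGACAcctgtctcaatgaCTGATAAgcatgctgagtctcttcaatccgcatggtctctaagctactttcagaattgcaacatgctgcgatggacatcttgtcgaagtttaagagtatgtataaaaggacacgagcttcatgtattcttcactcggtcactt
vit-4 promoter (chrX:3563966-3564215, minus strand): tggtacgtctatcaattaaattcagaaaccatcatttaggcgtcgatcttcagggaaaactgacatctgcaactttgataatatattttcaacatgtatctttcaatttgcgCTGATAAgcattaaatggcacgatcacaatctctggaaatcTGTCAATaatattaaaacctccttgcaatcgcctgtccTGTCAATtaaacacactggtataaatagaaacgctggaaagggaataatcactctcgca
TGTCAAT was found in all 6 vit promoters and in 4.81% of the 19973 promoters of this length. CTGATAA was found in 5 of the 6, not in vit-3, and in 7.20% of all promoters. TGATAA was found in all 6 and in 26.8% of all promoters. Peaks of the main list covered 2 of the 8 TGTCAAT sites of the vit promoters, those of vit-1 and vit-2, and 1 of the 5 CTGATAA sites, that of vit-1. At vit-2 the TGTCAAT starts 57 bp before the gene and lay under a peak of all 4 lists. At vit-6 both elements lay upstream of the start peak, 163 and 143 bp before the gene, and under no peak of any list. The promoters of vit-4 and vit-5 hold 2 copies of TGTCAAT each and lay under no peak.

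A stretch of 60 bases from the coding sequence of the 5 X-linked genes is printed because the genes without peaks are the closest copies. Capitals mark bases that differ from vit-5.
vit-5 coding stretch (chrX:3404081-3404140, plus strand): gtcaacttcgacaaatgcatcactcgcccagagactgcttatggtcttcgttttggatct
vit-4 coding stretch (chrX:3563306-3563365, minus strand): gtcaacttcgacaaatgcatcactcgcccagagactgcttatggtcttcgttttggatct
vit-3 coding stretch (chrX:3571881-3571940, minus strand): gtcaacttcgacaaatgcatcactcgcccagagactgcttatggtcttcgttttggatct
vit-2 coding stretch (chrX:5101652-5101711, plus strand): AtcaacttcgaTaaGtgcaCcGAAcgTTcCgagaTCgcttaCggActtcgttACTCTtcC
vit-1 coding stretch (chrX:7728510-7728569, plus strand): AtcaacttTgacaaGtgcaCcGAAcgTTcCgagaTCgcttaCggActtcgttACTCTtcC
Over these 60 bases vit-3 and vit-4 did not differ from vit-5, and vit-1 and vit-2 each differed at 20. The vit-5 stretch lies under both vit-5 peaks of the main list, so those peaks cover bases that vit-3 and vit-4 share.

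Every peak of the lists has a signal value, which measures its enrichment. No source gives the scale of these values, so they were read only as ranks within a list. Ranks and percentiles here are among nuclear peaks of the same list, and a percentile is the percent of them with lower signal. The irreproducible discovery rate (IDR) measures how poorly the rank of a peak recurs between the lists compared, so that a low IDR means good agreement. The authors' score is the IDR on a log scale. The thresholded peaks of the main list had a score of at least 833, and 830 corresponds to an IDR of 1.00%. The highest score among the 27 vit peaks was 158.

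vit-6, the autosomal member, carried the strongest peaks. Its start peak (chrIV:8261085-8261608) had its summit 190 bp after the gene start, in the first intron, with a signal of 72.4 at percentile 99.4. This was the only one of the 27 summits outside a coding exon. In the replicates' own lists the summits of the overlapping peaks lay in a coding exon, at 205 bp in replicate 1 and 222 bp in replicate 2. The peak also overlapped K07H8.16, a short non-coding RNA gene on the opposite strand (chrIV:8261007-8261150). Its IDR was 73.5% in the main list and 9.88% in the other ranked list of the series. On replicate 1's side of the comparison the matched peak had a signal of 14.4 at rank 17376 of 24682. On replicate 2's side it had a signal of 44.5 at rank 78 of 25235. The peak was thus among the strongest of replicate 2 and in the lower part of replicate 1.

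The middle peak of vit-6 (chrIV:8263292-8263815) had its summit 2397 bp after the start, 45.2% along the gene, with a signal of 52.9 at rank 1565 and an IDR of 57.7%. Here the order of the replicates was the reverse, with a matched signal of 45.4 at rank 146 on replicate 1's side and of 15 at rank 11552 on replicate 2's side. A second peak of replicate 2 overlapped the same region at a signal of 33.6, rank 581 of its own list, with its summit 2131 bp after the start. The own peak of replicate 1 had its summit at 2519 bp. Both replicates therefore had a strong peak near the middle of vit-6, at percentiles 99.2 and 97.6 of their own lists, with summits apart from each other.

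Towards the 3′ end of vit-6 a peak with its summit at 4238 bp (chrIV:8265133-8265656) had a signal of 45.3 at rank 3412. Its matched signals were 25 and 18.7, at percentiles 82.7 and 73.0. Its IDR was 44.2%, the second lowest of the 27. The other 4 peaks of vit-6 had signals of 10.6 to 27.1. In the own lists replicate 1 had 5 peaks on vit-6, strongest at the middle (signal 45.4, rank 157), and replicate 2 had 7, strongest at the start (signal 44.5, rank 81).

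vit-2 carried the next strongest peaks. Its start peak (chrX:5100920-5101443) had its summit 140 bp after the gene start with a signal of 50.7 at rank 1939. Its IDR was 74.4% in the main list and 14.9% in the other list. The matched peak had a signal of 40.2 at rank 328 on replicate 1's side and of 8.48 at rank 24051 on replicate 2's side, where its summit lay 60 bp upstream of the gene. A second peak of replicate 2 overlapped the same region at a signal of 19.1, percentile 67.7 of its own list. Its summit lay 390 bp after the start. Replicate 1's start peak stood at percentile 98.2 of its own list. The difference between replicates was in the opposite direction to that at the start of vit-6, but smaller by this second peak than by the matched one.

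An overlapping vit-2 peak with its summit at 353 bp had a signal of 46.2 at rank 3114. Its matched signals were 25.9 and 19.1, at percentiles 84.7 and 74.4. Its IDR of 41.6% was the lowest of all 27 vit peaks. The 3′ peak of vit-2 at 4665 bp had a signal of 35.5, with matched signals of 30.2 and 10.7, and the other 6 ran from 11.0 to 32.1. In its own list replicate 1 had 7 peaks on vit-2, up to a signal of 40.2 at 118 bp. Replicate 2 also had 7, up to 20.1 at 4423 bp. The convergent neighbour C42D8.9 overlaps the last bases of vit-2. It had 2 peaks in the main list, both outside the vit-2 window, and of the vit-2 peaks in the 4 lists only the last one of replicate 1 reached it.

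vit-1, the closest copy of vit-2, had as many peaks but weaker ones. Its strongest (chrX:7731500-7732023) had its summit at 3873 bp with a signal of 34.5 at rank 9333 and an IDR of 86.0%. The matched signals were 13.9 and 16.9, at percentiles 26 and 64.9. The other 8 signals ran from 13.1 to 26.5. At the start of vit-1, where vit-2 was strongest, the summit at 21 bp had a signal of 20.6 and was in neither replicate's own list. Replicate 1's own list held 1 vit-1 peak, at 2303 bp with a signal of 16.6. Replicate 2's held 4, led by a peak at 1294 bp with a signal of 28.0 at percentile 93.2.

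vit-5 had 2 overlapping peaks in the main list only, with summits at 518 and 755 bp and signals of 26.7 and 29.8. Both had an IDR of 86.0%, and neither overlapped a peak of either replicate's own list. The nearest peak of replicate 1's own list lay 565 bp past the 3′ end of vit-5, and that of replicate 2's own list 247 bp past it.

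vit-3 and vit-4 had no peak, and both have peaks just outside. The nearest of the main list lay 92 bp from the vit-3 window with a signal of 16.1, and 586 bp from the vit-4 window (chrX:3557660-3558183) with a signal of 53.7 at rank 1427. Both lie past the 3′ ends of these minus-strand genes. With 2000 bp upstream counted, vit-4 gained 2 peaks, with summits 1386 and 1636 bp upstream and signals of 28.2 and 16.2. vit-1 also gained 2, with signals of 49.6 (rank 2194, summit 1828 bp upstream) and 28.4, of which the first is stronger than any peak within the 1000 bp window of vit-1. vit-2 gained 2 with signals of 37.8 and 27.8, and vit-3, vit-5 and vit-6 gained none. Short non-coding RNA genes on the opposite strand overlap the starts of vit-3 (T27A10.8) and vit-4 (F59D8.3), the protein-coding T27A10.5 lies in the upstream window of vit-3 and C04F6.9 in that of vit-5, and the non-coding C42D8.16 reaches that of vit-2. None of these 5 had a peak in the main list.

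**Figure D1:**
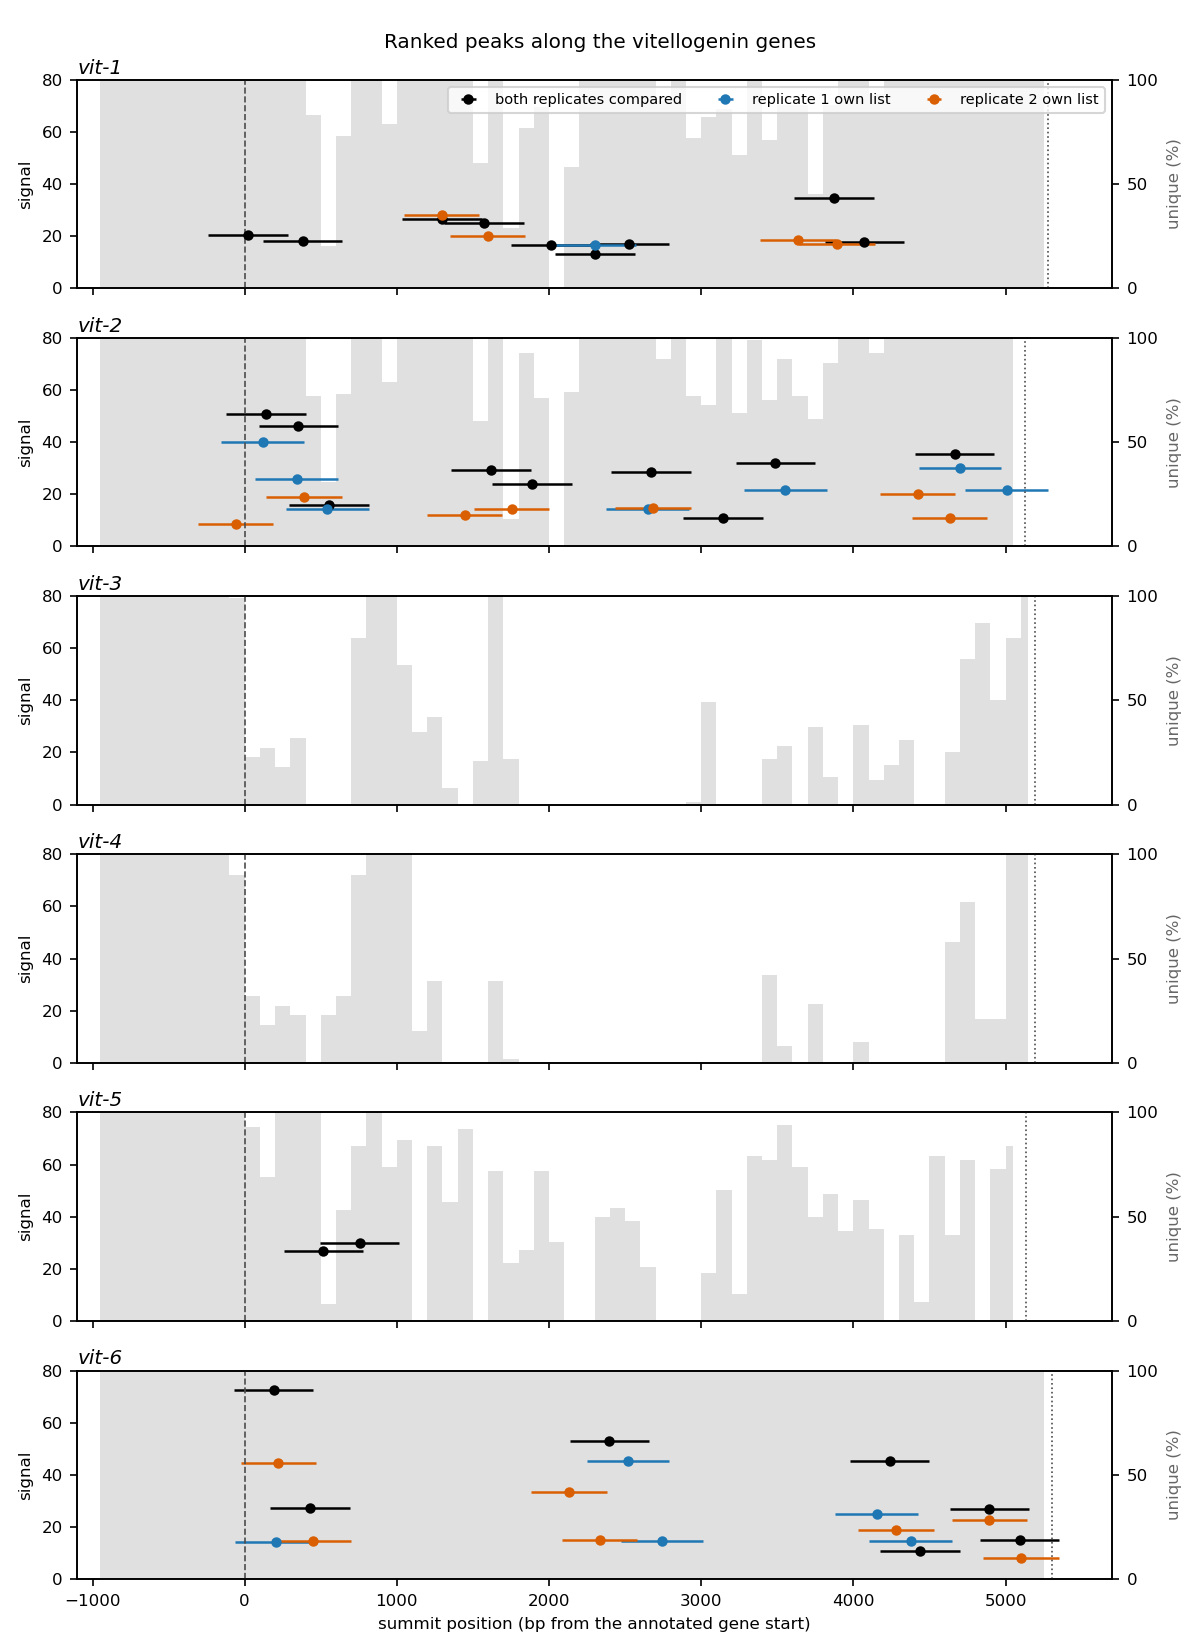
Ranked peaks along the 6 genes, with summit position in bp from the gene start on the x axis and signal on the y axis. Points are summits, bars span the peak, colours give the list (signal is not on one scale across lists), grey shows the percent of positions with a unique stretch of 50 bases in bins along the gene, and dashed and dotted lines mark the gene start and end. vit-3 and vit-4 are empty and have little unique sequence inside the gene, and vit-6 peaks at its start with a signal of 72.4.

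Summits lay along the whole gene bodies. In the main list 12 of the 27 were in the first of 3 equal parts of their gene, 7 in the middle part and 8 in the last, and 8 lay within 600 bp of the start. No summit was upstream of a start, and upstream bases make up 16.1% of the windows. Replicate 2's own list had 1 upstream summit, at vit-2, and replicate 1's had 0. Coding exons held 26 of the 27 summits and make up 78.1% of the window bases. The shares of upstream and coding summits over all protein-coding genes are not given here, so these counts have no background. Many peaks overlapped each other, and the 27 merged into 11 separate regions, 3 on vit-1, 4 on vit-2, 1 on vit-5 and 3 on vit-6. The median GC content within 50 bp of the summits was 48.5%, against 41.6% for all nuclear ranked peaks. Over the whole gene it was 46.7% in vit-1, 48.5% in vit-2, 45.6% in vit-5 and 47.9% in vit-6, so the summits were near the level of their genes. Any of the 6 bHLH hexamers lay within 50 bp of 6 of the 27 summits (22.2%), against 23.5% of all nuclear ranked peaks. CACNAG was at 4 (14.8%, against 13.2% of all nuclear ranked peaks). CACGTG was at 1 (3.70%, against 2.42%) and CATGCG at 1 (3.70%, against 2.16%). The count was 2 within 25 bp and 10 within 100 bp of the summit, and no share over all peaks is given for these distances.

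Signal over the vit peaks spanned nearly the whole range of ranks. Of the 27, 5 were in the top 10% of nuclear peaks by signal, 3 of them on vit-6 and 2 on vit-2. The median percentile was 52.5, and 12 were below the median of all. The IDR ran from 41.6 to 86.0% with a median of 70.2%, and the median over the whole main list was 72.5%. By best peak, the order of genes was vit-6 (72.4), vit-2 (50.7), vit-1 (34.5) and vit-5 (29.8), with no value for vit-3 and vit-4. By the best peak of each own list, vit-6 also stood above vit-2 in both replicates, with 45.4 against 40.2 in replicate 1 and 44.5 against 20.1 in replicate 2. In replicate 1 the vit-6 value belongs to the middle peak and not to the start peak. vit-1 stood below vit-2 in replicate 1 (16.6 against 40.2) and above it in replicate 2 (28.0 against 20.1), so the order of this pair differed between the replicates.

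Replicate agreement was judged by overlap and by rank. Of the 27 peaks, 13 (48.1%) overlapped a peak of each replicate's own ranked list, against 31.1% of all nuclear ranked peaks. These were 6 on vit-2, 6 on vit-6 and 1 on vit-1. Only 5 of the 27 (18.5%) had a summit within 100 bp of a summit in each own list, against 12.2%. The 27 share peaks, since they were matched to 17 distinct peaks on replicate 1's side and 18 on replicate 2's. The matched peaks of both sides overlapped the vit peak in 22 of the 27, against 91.2% of all nuclear ranked peaks. In the other 5, of which 4 are on vit-1 and 1 on vit-6, the percentile of a side belongs to a nearby peak that does not overlap. With these included, the percentiles of the matched peaks differed by 6.69 to 94.0 points between the sides, with a median of 38.9, against a median of 25.4 over all nuclear ranked peaks. None of the 27 was in the top 25% of signal on both sides, 5 were so on replicate 1's side alone and 7 on replicate 2's alone, and 8.79% of all nuclear ranked peaks were so on both. With the strongest overlapping peak of each own list in place of the matched peak, a setting chosen after seeing the data, 2 of the 27 were in the top 25% of both lists (7.41%, against 7.42% of all). Both were on vit-6, the middle peak and a weak peak (signal 10.6) that overlaps stronger ones at the 3′ end.

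**Figure D2:**
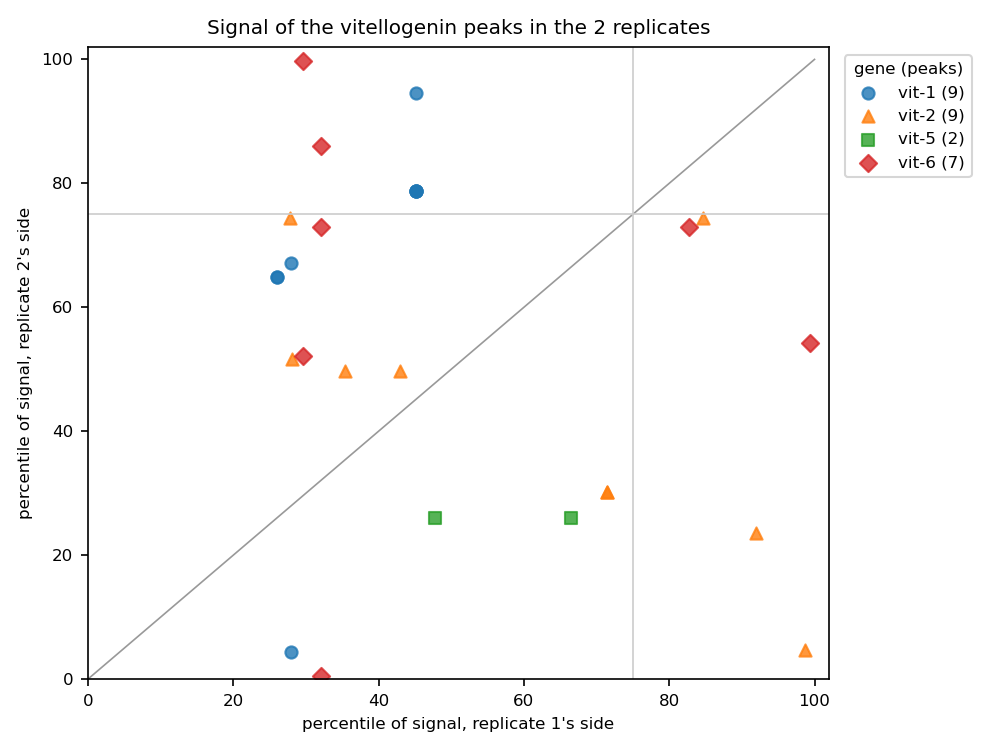
Percentile of the signal of the matched peak on replicate 1's side (x axis) and on replicate 2's side (y axis) for the 27 vit peaks of the main list, with 1 point per peak, some on top of each other because neighbouring peaks share a match. Grey lines mark equality and percentile 75. No point lies in the upper right area where both exceed it, though a vit-2 peak at percentiles 84.7 and 74.4 lies just below. The start peaks of vit-6 and vit-2 lie on opposite sides of the line of equality.

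Across lists the counts of vit peaks were 27 in the main list, 24 in the other series list, 13 in replicate 1's own list and 18 in replicate 2's. The number of genes with a peak was 4, 3, 3 and 3, since vit-5 had one in the main list only. The shares of all protein-coding genes with a ranked peak in the last 3 lists were 60.7%, 45.8% and 51.5%. Per kb of window the 6 genes held 0.725, 0.645, 0.349 and 0.483 peaks, against 0.435, 0.436, 0.245 and 0.298 over all protein-coding genes. Among 481 protein-coding genes with windows of 6 to 6.5 kb, 77.3% had a peak, at 0.428 peaks per kb. Singly, vit-2 had 1.47 peaks per kb, vit-1 1.43, vit-6 1.11 and vit-5 0.326. In the main list 94.3% of protein-coding genes had fewer per kb than vit-2, 93.7% than vit-1, 87.0% than vit-6 and 49.2% than vit-5.

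Other classes of gene were set beside the vit genes in the main list. Genes on X, where 5 of the 6 lie, had 0.524 peaks per kb. Among other gene families, 76 ribosomal protein genes (rpl and rps) had 1.27, 156 collagen (col) genes 0.768 and the 31 sperm-specific msp genes 0.352. Their median windows were 1.75, 2.22 and 1.38 kb, against 6.20 kb for the vit genes, so these densities are not matched for window length. Transcription was not measured, and its part in the density was not tested.

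**Figure D3:**
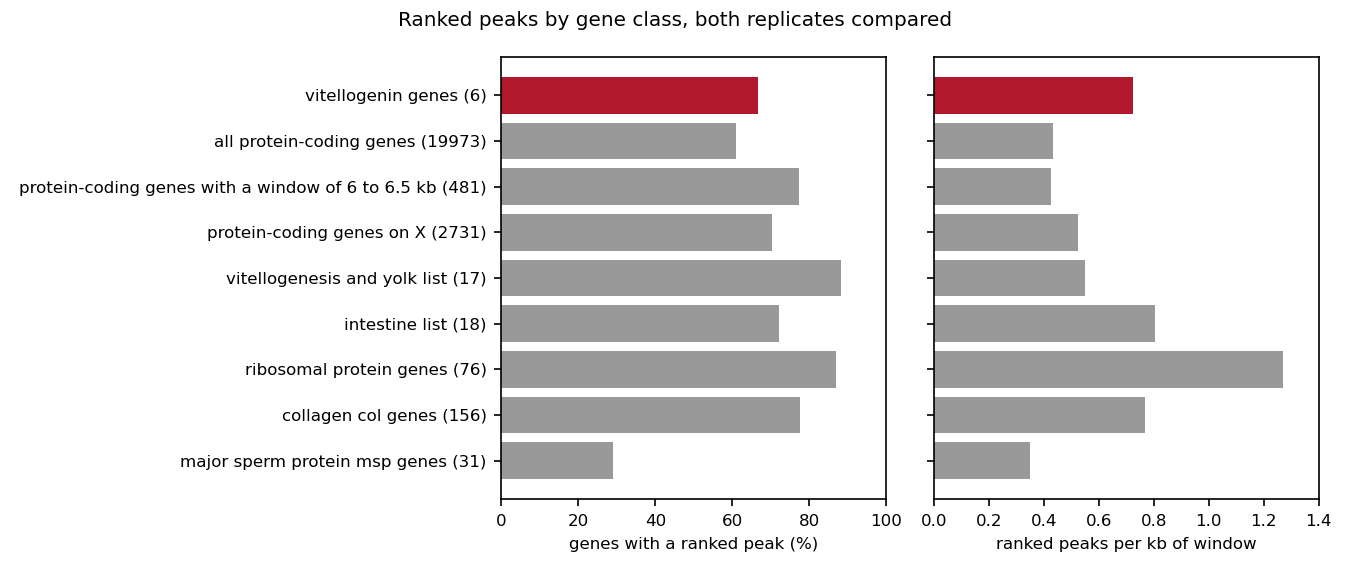
Percent of genes with a ranked peak (left x axis) and ranked peaks per kb of window (right x axis) for the vit genes in red and for other classes in grey, main list, with the number of genes in brackets. The vit genes stand at 66.7% and 0.725 per kb. In density they are above all protein-coding genes. They are below the ribosomal protein genes (1.27), the intestine list (0.804) and the collagen genes (0.768).

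The genes differed in how much of their sequence occurs once in the genome. The share of start positions whose stretch of 50 bases is unique was 100% in vit-6, 87.2% in vit-1, 86.9% in vit-2, 50.9% in vit-5, 25.9% in vit-3 and 21.4% in vit-4. The median protein-coding gene stood at 100%, and only 1.95 to 3.35% of protein-coding genes had less unique sequence than vit-3, vit-4 or vit-5. Coding sequences of vit-3 and vit-4 were 99% identical and shared a run of 1326 bases without a difference. vit-5 was 97.7% identical to vit-3 and 97.8% to vit-4, with shared runs of up to 369 and 500 bases. vit-1 and vit-2 were 93.8% identical and shared a run of 172 bases. vit-6 was 52.7 to 54.2% identical to the others.

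The genes without a peak in the own lists, vit-3, vit-4 and vit-5, were those with the least unique sequence. A read from a shared stretch has more than one best place, and no source used here says how the authors treated such reads. Outside the vit genes, 133 protein-coding genes with windows of at least 4 kb had under 60% unique sequence, a limit chosen after seeing the data. Of these, 42.1% had a ranked peak, at 0.120 per kb, against 76.8% and 0.406 per kb for genes with 60% or more. The 1000 bp upstream of vit-3 and vit-4 are unique at 99.9% and 98.9% of positions and also held no peak. Their windows hold 2331 and 2092 unique positions. The part of read placement in the missing peaks was not tested. Within the peaks, a mean of 86.7% of positions was unique over the 27, and 98.4% over all nuclear ranked peaks. The start peaks of vit-6 and vit-2 were 100% unique, and the vit-5 peaks 67.4% and 62.9%.

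**Figure D4:**
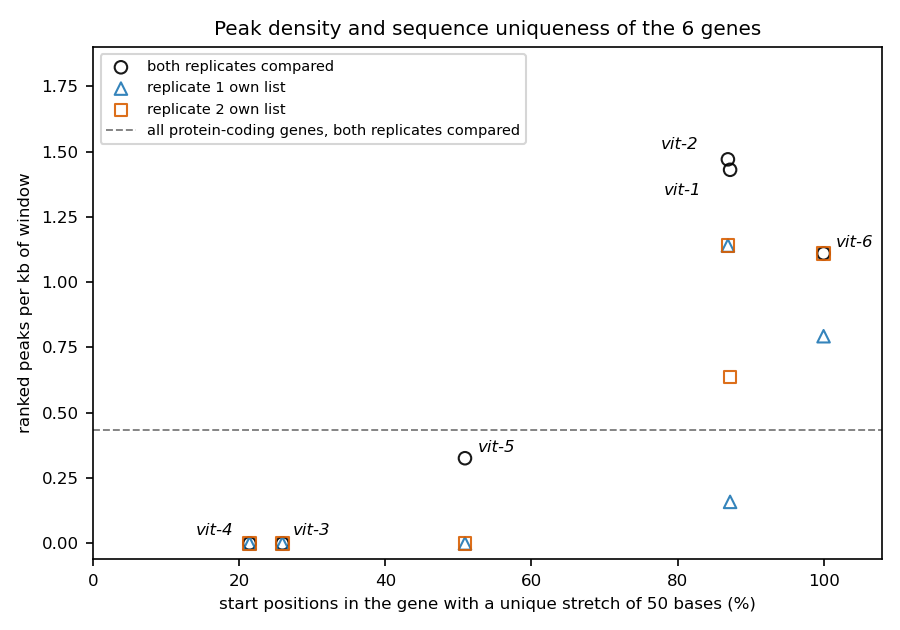
Percent of start positions in each gene with a unique stretch of 50 bases (x axis) and ranked peaks per kb of window (y axis) for the 6 genes, with symbols for the main list and each replicate's own list and a dashed line at the 0.435 peaks per kb of all protein-coding genes. vit-3, vit-4 and vit-5 lie low on both axes, and vit-1, vit-2 and vit-6 lie to the right with 1.11 to 1.47 peaks per kb in the main list.

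Genes that act on vitellogenin production or uptake were described from a list of 17. Of these, 15 (88.2%) had a ranked peak in the main list, against 61.0% of all protein-coding genes, whose windows are shorter. None had a thresholded peak, against 0.416% of all. The 3 with the highest signal were sgk-1, a kinase that acts with the TORC2 pathway (68.3, rank 331), lrp-2, an LDL receptor-related protein (63.2, rank 552), and lin-14, a heterochronic nuclear protein (58.7, rank 842). All 3 had peaks in both replicates' own lists, with 2 and 4, 7 and 5, and 16 and 14. The median percentile of the best peak was 91.0 over this list and 75.8 over all protein-coding genes with a peak, but the listed genes have a median window of 8.55 kb against 3.03 kb. Of 18 genes expressed in the intestine, 13 (72.2%) had a ranked peak in the main list, against 61.0% of all protein-coding genes, and none a thresholded one. The share was 61.1% in the other list and 44.4% in replicate 2's own list, near or below the 60.7% and 51.5% of all genes. In replicate 1's own list it was 66.7%, above the 45.8% of all genes, so the replicates differed in direction. The strongest were at fat-6, a stearoyl-CoA desaturase (79.0, rank 119), vha-6, a subunit of the proton pump of the gut lumen (54.6, rank 1301), and spp-1, a saposin-like antimicrobial protein (54.4, rank 1327). The intestine list had 0.804 peaks per kb and the yolk list 0.550.

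The pattern most like that of vit-6, by the distance between percentiles of the best peak in the 4 lists, was found among 5990 protein-coding genes with a peak in all 4. The nearest were Y69H2.3 (distance 0.465 percentile points), ztf-22 (0.505) and mpk-2 (0.528). Their best peaks lay above percentile 99 in all 4 lists. For vit-6 the best peak was the start peak in 3 lists and the middle peak in replicate 1's own list, where the start peak stood at percentile 21.6. Whether the best peaks of the other genes lie at 1 place in all lists was not examined. Both series lists draw on the same 2 replicates as the own lists, so these are not 4 independent measures.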

How the data were processed

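Peak positions and values came from the deposited ranked and thresholded lists on ce11, per the deposited README, for each of the 2 replicates and for the series. The authors deposited a signal value, a score and the −log10 of the IDR for each peak. The score lay within 1 unit of the rescaled IDR for 35300 of 35301 peaks of the main list. How the peaks were called and compared (caller, IDR program, versions, control) and the scale of the signal are not stated in the sources. No read counts were used, so the depth behind each value is unknown. Fragments were 200 to 800 bp, per the labels.

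The main list is the ranked list that contains every line of the conservative thresholded list. Its compared sides were matched to the replicates by identical start, end and signal (13627 peaks of side 1 recur in replicate 1's own list and 0 in replicate 2's, and 14541 of side 2 in replicate 2's and 0 in replicate 1's). Gene models are those of Ensembl release 115 and bases those of RefSeq, both for WBcel235. Mitochondrial peaks were left out. All 6 genes were named, with the 3 strongest of each gene list, the 3 nearest to vit-6 and neighbours in a window. Gene members and lists were chosen with earlier results of these data known. No test was run, since the design has 1 group, and peaks of a gene are not replicates. The counting steps were tested on simulated data. Python 3.11.15, numpy 2.4.6, pandas 2.3.3 and mafft 7.526 (coding alignments) were used.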

Additional observations from a re-analysis of the deposited data

How the results depend on the processing

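The number of vit genes with a ranked peak was 3 to 5 under another ranked list, each replicate alone, another upstream length or a summit rule. It was 0 when a score of at least 540 was required. No share over all protein-coding genes is given here for the other upstream lengths, the summit rule or the score limit. Those counts therefore have no background. Peaks per kb rose to 0.864 over the genes without upstream sequence, fell to 0.295 when overlapping peaks were merged, and were 0.349 to 0.483 with one replicate left out. No value over all protein-coding genes is given here for genes without upstream sequence or for merged peaks. The 0.864 and 0.295 therefore cannot be set against the 0.435 of the main list. The strongest vit peak of each list, always on vit-6, had a percentile of 99.2 to 99.7. It was the start peak except in replicate 1's own list, where it was the middle peak and the start peak stood at percentile 21.6. No setting tried gave a thresholded peak. With summits required within 100 bp, 5 peaks recurred in both own lists. Upstream summits numbered 0 to 1 with one replicate left out. Summits with a bHLH hexamer numbered 2 of 27 within 25 bp and 10 of 27 within 100 bp. They numbered 1 of 13 in replicate 1's own list and 4 of 18 in replicate 2's. No share over all nuclear ranked peaks is given for these settings. In the setting added after seeing the data, 2 peaks were in the top 25% of both own lists in place of 0. The cause of these changes was not tested, except that a stricter or narrower rule counts fewer peaks by construction. The unique share of the peaks was 82.2% with stretches of 36 bases and 94.6% with 100. No paired analysis was possible because there is 1 group. Without read counts, depth cannot be weighed, and a missing peak is not a measured absence of binding.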
